A study of Mus musculus with 6 samples.

Results

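The genes that present antigen were compared between WT and Fmo5-/- mouse liver, as 55 of the 54446 genes listed in the deposited counts. Members were chosen by name. They are the 45 genes whose symbol starts with H2-, the mouse name of the major histocompatibility complex (MHC), and 10 genes of peptide loading and its control. Of the 55, 32 are class I genes (H2-K, H2-D, H2-Q, H2-T, H2-M and *H2-Bl*), 12 are class II genes (H2-A, H2-E, H2-DM, H2-O and H2-P) and 10 are the processing genes and regulators. The remaining gene, *H2-Ke6*, is an enzyme gene that carries the prefix because it lies in the MHC, and was kept apart. A count was found in at least 1 library for 46 members, and 36 passed the filter on low counts and were tested: 17 of class I, 8 of class II, all 10 processing genes and regulators, and *H2-Ke6*.

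The samples were whole livers of male mice of 32 weeks of age, 3 WT and 3 Fmo5-/-, with 1 RNA-seq library per mouse. Mice are numbered 1 to 3 within a genotype only to name them. The strain background is given as C57BL/6 in the labels and as C57BL/6J in the methods of the study, and both genotypes ate standard chow. The Fmo5-/- mice are homozygous for loss of *Fmo5*, which encodes a flavin-containing monooxygenase, in the whole body, so that a change in the liver may arise in any of its cells or in other organs. The labels name no batch and no litter.

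MHC class I molecules are made by nearly all nucleated cells. A heavy chain pairs with beta-2-microglobulin (*B2m*) in the endoplasmic reticulum (ER), takes up a peptide that the proteasome has cut and the transporter TAP has carried in, and shows it to CD8 T cells. Class II molecules are made mainly by macrophages, dendritic cells and B cells. They travel with the invariant chain (*Cd74*) to endosomes, where the H2-DM proteins help to load a peptide for CD4 T cells. NLRC5 and CIITA are the coactivators of class I and class II transcription, and interferons raise both. In liver, hepatocytes carry little class II, whereas Kupffer cells, the resident macrophages, carry both classes. *H2-Q10*, a secreted class I protein, is made mainly by hepatocytes.

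The promoters of the class I genes are shown because genes of this family lie side by side and their promoters do not hold the same motifs. RefSeq promoters (GRCm38.p6) were found for 36 of the members. The 200 bases before the start site are given 5′ to 3′ on the strand of the gene. Capitals mark 4 motifs, searched on both strands and chosen after the sequences had been seen. The Y box core, where the factor NF-Y binds, was searched as ATTGG. The X2 box core, a site of the CREB family, was searched as TGACG. The interferon-type element was searched as TTTCACTT, and the kappa B-type element, for NF-kappa B, as GGGANTNCC, where N is any base. *H2-K1* lies on the reverse strand, at chr17:34000348-34000547. *H2-Q4* is at chr17:35379417-35379616, *H2-Q7* at chr17:35438955-35439154 and *H2-Q10* at chr17:35469889-35470088, all on the forward strand.
H2-K1: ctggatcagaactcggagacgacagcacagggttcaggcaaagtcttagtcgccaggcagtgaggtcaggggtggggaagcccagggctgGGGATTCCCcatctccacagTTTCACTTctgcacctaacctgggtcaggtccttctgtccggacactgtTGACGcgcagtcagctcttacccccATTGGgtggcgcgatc
H2-Q4: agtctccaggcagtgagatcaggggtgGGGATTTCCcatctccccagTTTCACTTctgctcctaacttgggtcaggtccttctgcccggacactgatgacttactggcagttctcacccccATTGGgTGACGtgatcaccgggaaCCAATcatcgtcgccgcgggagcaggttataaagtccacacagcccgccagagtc
H2-Q7: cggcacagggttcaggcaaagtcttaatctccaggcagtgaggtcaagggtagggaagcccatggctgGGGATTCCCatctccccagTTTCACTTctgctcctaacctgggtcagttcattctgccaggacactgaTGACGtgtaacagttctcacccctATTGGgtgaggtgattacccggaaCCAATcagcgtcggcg
H2-Q10: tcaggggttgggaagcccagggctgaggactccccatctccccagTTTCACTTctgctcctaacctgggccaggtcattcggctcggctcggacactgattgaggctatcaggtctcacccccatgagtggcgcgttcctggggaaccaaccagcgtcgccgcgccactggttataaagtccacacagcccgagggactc

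In the 250 bases before the start site, all 4 motifs were found in *H2-K1*, *H2-D1*, *H2-Q4* and *H2-Q7*, among the 23 class I members with a promoter. Over 32851 mouse promoter windows of that length, 33.8% held the Y box core, 17.8% the X2 box core, 1.36% the interferon-type element and 3.36% the kappa B-type element. All 4 stood together in 8 windows, or 0.0244%, and 5 of the 8 belong to these 4 genes, whose promoters had been seen when the motifs were chosen. The window of *H2-Q10* held the interferon-type element and none of the other 3, that of *H2-Q6* lacked the X2 box core, and that of *H2-T23* held the Y box core alone. Of the 4 genes with all motifs *H2-Q7* was called higher in Fmo5-/- liver, and *H2-Q6* and *H2-T23* were called as well. A match describes the letters in the window and not binding. In *H2-Q4* the TGACG match stands just after ATTGG, whereas in *H2-K1* and *H2-Q7* it stands before ATTGG. The search did not ask for a fixed order or spacing of the motifs. For comparison, the promoter of *B2m* on chromosome 2 (chr2:122147487-122147686, forward strand) held both box cores, and that of *H2-Aa*, a class II gene (chr17:34287824-34288023, reverse strand), held both box cores and the kappa B-type element.
B2m: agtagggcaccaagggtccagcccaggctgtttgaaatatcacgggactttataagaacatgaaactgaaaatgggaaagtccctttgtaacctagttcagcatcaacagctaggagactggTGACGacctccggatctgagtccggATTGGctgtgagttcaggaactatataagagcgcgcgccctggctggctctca
H2-Aa: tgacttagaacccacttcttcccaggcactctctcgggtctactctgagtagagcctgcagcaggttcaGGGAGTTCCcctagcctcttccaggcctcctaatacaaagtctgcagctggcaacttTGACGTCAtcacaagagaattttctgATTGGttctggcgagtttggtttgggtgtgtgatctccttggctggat

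The libraries held between 44886286 and 52338675 counts on genes, which were 66.2% to 69.2% of their reads, and a gene with no count in a library may still hold up to 3 counts, or 0.0573 to 0.0668 counts per 1e+06. That limit covers counting error only. Normalized counts, used below, are counts scaled to a common library size. *Fmo5* had 39808, 37405 and 30240 normalized counts in WT mice and 1071, 1102 and 1194 in Fmo5-/- mice, a log2 fold change of -5.00 (SE 0.137, adjusted p = 2.79e-07 in edgeR), as the labels require. The liver label fits *Alb*, the albumin of hepatocytes, at 4085756 or more normalized counts in every library.

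In Fmo5-/- liver, 5 class I genes of the H2-Q and H2-T groups and 2 genes of the peptide loading complex were called higher than in WT liver, and no member was called lower. In edgeR's quasi-likelihood test, with adjustment over 16734 genes, 7 of the 36 tested members had an adjusted p under 0.05, and all 7 were higher: *H2-Q5*, *H2-Q6*, *H2-Q7*, *H2-T10*, *H2-T23*, *Tap2* and *Tapbp*. Over all genes tested, 0.675% were called higher and 1.37% in either direction. The DESeq2 Wald test called 17 members higher and 0 lower, against 4.75% of all its genes higher. Without adjustment, 24 members were higher at p under 0.05 and 0 lower, against 11.6% of all genes tested that were higher. The 3 Fmo5-/- mice all lay above the 3 WT mice for 26 of the 36 tested members, against 13.9% of all genes tested, and for no member did all lie below. The median log2 fold change was 0.57 for the tested class I members, 1.25 for class II and 0.57 for the processing genes and regulators, against 0.0058 for all genes tested. These medians hold only for members that passed the filter.

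**Figure D1:**
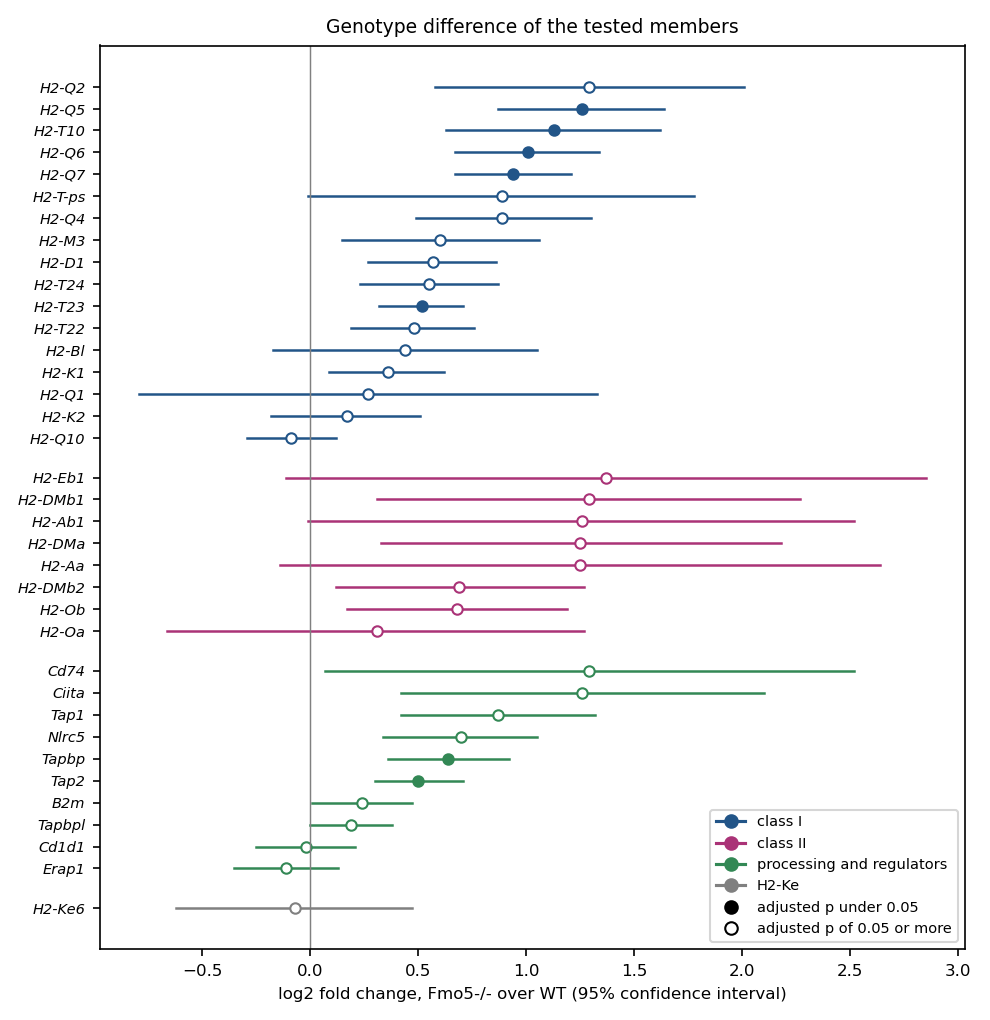
Log2 fold change, Fmo5-/- over WT, of the 36 tested members (x axis) with its 95% confidence interval from edgeR, grouped by class (y axis). Filled points are the 7 members with an adjusted p under 0.05, all to the right of 0. Class II genes have log2 fold changes of up to 1.37 but wide intervals, and *H2-Q10*, *Erap1*, *Cd1d1* and *H2-Ke6* lie just to the left of 0.

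Most class I transcript came from 3 genes. Per length, as reads per kilobase of exon per 1e+06 reads (RPKM), the highest levels in WT liver were those of *H2-Q10* (604 ± 38.0, SD, n = 3), *H2-K1* (496 ± 30.8) and *H2-D1* (209 ± 18.6), followed by *H2-T23* (62.8 ± 1.40). *H2-T22* (18.3 ± 0.281) and *H2-Q6* (17.2 ± 2.24) were next and did not differ beyond their spread, and neither did *H2-Q4* (13.9 ± 1.69) and *H2-Q7* (11.9 ± 1.28). All other class I members were at 6.98 or less. These levels rest on reads that map to 1 place only. Of the 75-base words in their transcripts, 40.0% of those of *H2-T22* and 21.1% of those of *H2-Q6* are also found in another gene. RPKM also rests on the length of all annotated exons, 4265 bases for *H2-Q7* and 2085 for *H2-Q6*. *H2-Q7* had more normalized counts in WT liver (a mean of 2469 against 1745) but the lower RPKM. The order of genes and the shares of the class I pool given below depend on these lengths. Of the 32 class I genes, 7 had no count in any library, all of them H2-M genes, most of which are known from the vomeronasal organ. A further 8 had counts too low for the test, among them *H2-T3*, with 2 to 8 raw counts per library, and *H2-M2*, with 4 to 11 in 5 libraries and 51 in Fmo5-/- mouse 2.

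The classical class I genes, which present peptides to most CD8 T cells, were higher in each Fmo5-/- mouse but were not called in edgeR. *H2-K1* had 74470, 72792 and 66126 normalized counts in WT mice and 90483, 104035 and 78767 in Fmo5-/- mice. The groups did not overlap, and the log2 fold change was 0.36 (SE 0.118, adjusted p = 0.132 in edgeR and 0.0613 in DESeq2). *H2-D1* had 27034, 28234 and 23706 in WT mice and 38016, 45583 and 33288 in Fmo5-/- mice, again with no overlap. Its log2 fold change was 0.57 (SE 0.129), with an adjusted p of 0.064 in edgeR and 0.00189 in DESeq2.

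Of the 5 called class I genes, 3 were H2-Q genes, the nonclassical genes of the Qa region. *H2-Q7* and *H2-Q6* encode Qa-2 antigens, which are held on the cell surface by a lipid anchor or secreted. *H2-Q7* had 2631, 2163 and 2613 normalized counts in WT mice and 4730, 5383 and 4083 in Fmo5-/- mice. Every Fmo5-/- mouse had more than the highest WT mouse, and the log2 fold change was 0.94 (SE 0.120, adjusted p = 0.0118 in edgeR). *H2-Q6* had 1831, 1486 and 1918 in WT mice and 3238, 4265 and 3009 in Fmo5-/- mice, with a log2 fold change of 1.01 (SE 0.148, adjusted p = 0.0243). *H2-Q5*, annotated as a polymorphic pseudogene, had 285, 208 and 277 in WT mice and 531, 750 and 558 in Fmo5-/- mice, with a log2 fold change of 1.26 (SE 0.172, adjusted p = 0.0155). *H2-Q5* was the only member called after the removal of any of the 6 libraries, with an adjusted p between 0.00811 and 0.0451. *H2-Q7* was called in 5 of these 6 fits and *H2-Q6* in 4.

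*H2-Q4*, which encodes Qb-1, had 1924, 1521 and 1846 normalized counts in WT mice and 2965, 4197 and 2668 in Fmo5-/- mice. Its log2 fold change of 0.89 (SE 0.175) had an adjusted p of 0.0554 in edgeR and of 3.43e-05 in DESeq2. *H2-Q2* was far less abundant, at 12.7, 16.7 and 23.5 in WT mice and 39.1, 56.0 and 35.3 in Fmo5-/- mice, with a log2 fold change of 1.29 (SE 0.316, adjusted p = 0.0712 in edgeR). Both were without overlap between the genotypes. *H2-Q1* overlapped between the genotypes, at 426, 235 and 404 in WT mice and 508, 577 and 198 in Fmo5-/- mice, with a log2 fold change of 0.27 (SE 0.433, adjusted p = 0.774), which became -0.01 without Fmo5-/- mouse 2.

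*H2-Q10* lay apart from its neighbours. It had 137112, 121623 and 125462 normalized counts in WT mice and 122002, 121000 and 118983 in Fmo5-/- mice. The ranges overlap, and the log2 fold change was -0.09 (SE 0.0916, 95% confidence interval -0.29 to 0.12, adjusted p = 0.633 in edgeR). The interval leaves out a rise of the size seen for *H2-Q7*. These genes share sequence, and reads that map to more than 1 place were not counted: of the 75-base words in their transcripts, 21.2% of those of *H2-Q5*, 21.1% of *H2-Q6*, 20.7% of *H2-Q4*, 17% of *H2-Q7* and 12.5% of *H2-Q10* are also found in another gene. How far counts were divided among these genes was not tested.

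Among the H2-T and H2-M genes, *H2-T23* and *H2-T10* were called. *H2-T23* encodes Qa-1, a ligand of the CD94/NKG2 receptors of natural killer cells. It had 8888, 8639 and 9030 normalized counts in WT mice and 12634, 13458 and 11860 in Fmo5-/- mice, with a log2 fold change of 0.52 (SE 0.0845, adjusted p = 0.0308 in edgeR). *H2-T10*, annotated as a polymorphic pseudogene and related to the ligands of gamma delta T cells, had 127, 79.2 and 98.2 in WT mice and 222, 264 and 179 in Fmo5-/- mice. Its log2 fold change was 1.13 (SE 0.218, adjusted p = 0.0468), and 36.0% of its 75-base words are shared, mainly with BC023719 and *H2-T22*. Both calls were lost in 5 of the 6 fits made without 1 library, with an adjusted p of up to 0.109 for *H2-T23* and 0.131 for *H2-T10*. The other 4 tested genes of these groups and *H2-Bl* had log2 fold changes between 0.44 and 0.89 and adjusted p values of 0.0778 or more in edgeR. DESeq2 called *H2-T24* (adjusted p = 0.0235) and *H2-T22* (adjusted p = 0.0168) higher, and neither overlapped between the genotypes. *H2-K2*, a transcribed pseudogene, overlapped between the genotypes (log2 fold change 0.17, adjusted p = 0.573).

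**Figure D2:**
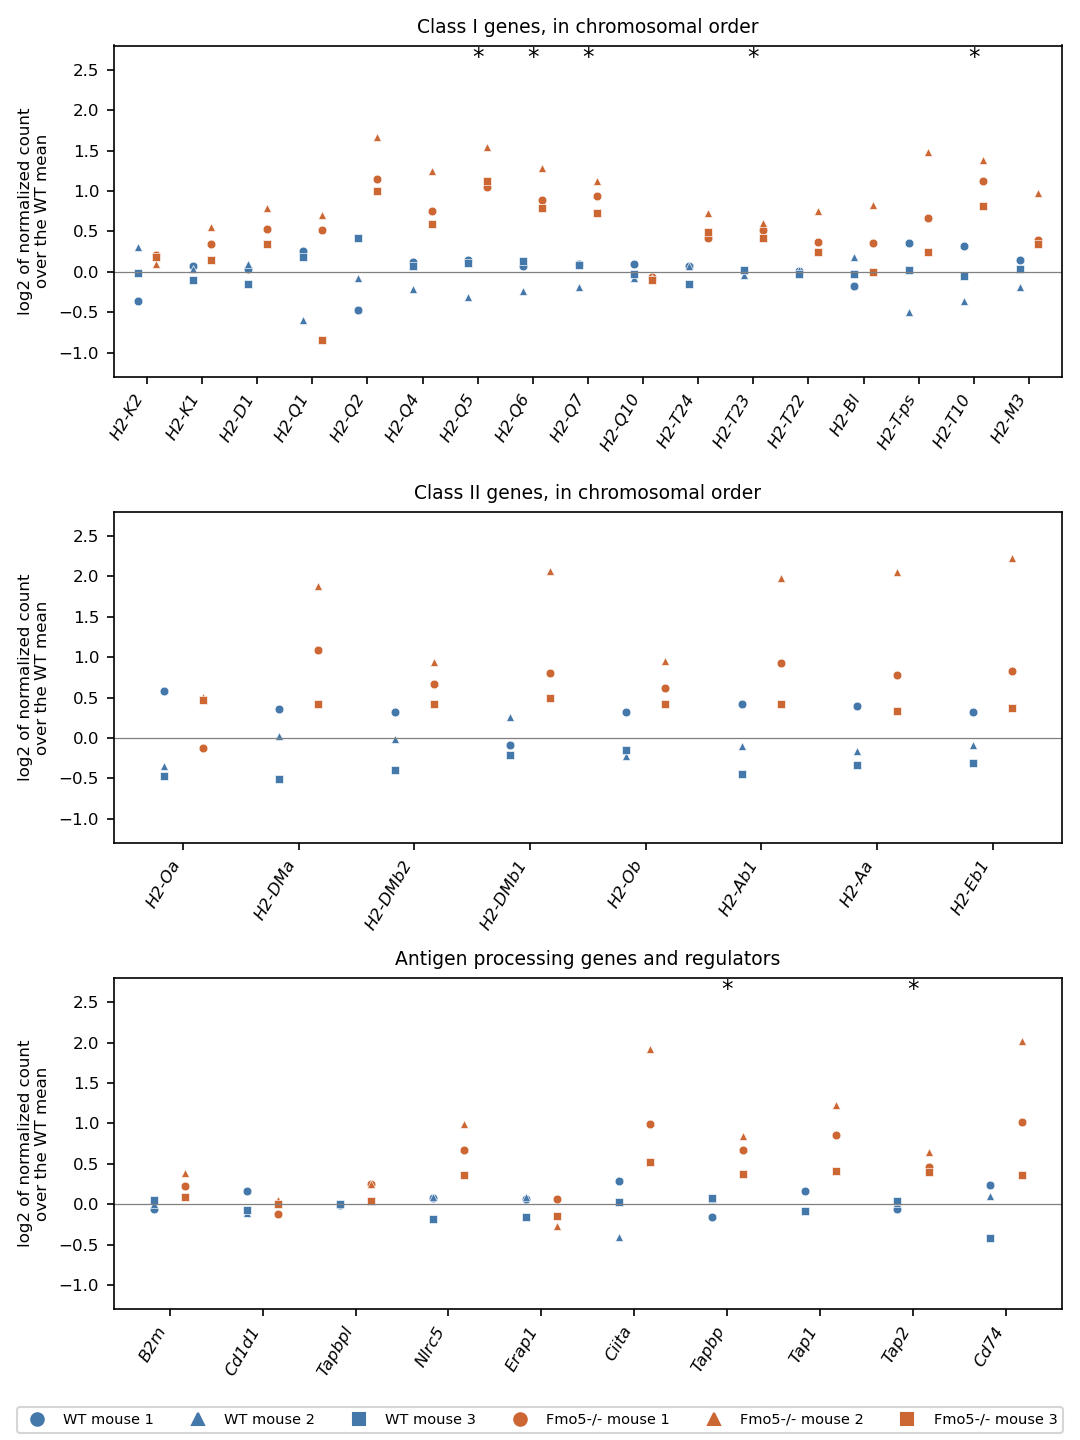
Normalized count of each tested member in each mouse, as log2 of its ratio to the WT mean (y axis), for class I genes, class II genes and processing genes and regulators (x axis; *H2-Ke6* not shown). Blue points are WT mice and orange points Fmo5-/- mice, with 1 symbol per mouse, and asterisks mark an adjusted p under 0.05. Fmo5-/- mouse 2 (orange triangles) is the highest of the 6 for 30 of the 36 tested members, *H2-Q10* lies near 0 in every mouse, and the class II genes spread most.

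The share of *H2-Q10* in the class I pool was lower in Fmo5-/- than in WT liver, with no overlap of the mice. The summed class I level was 1530, 1440 and 1390 RPKM in WT mice and 1730, 1920 and 1580 RPKM in Fmo5-/- mice. *H2-Q10* made up 42.3%, 39.8% and 42.6% of it in WT mice and 33.3%, 29.7% and 35.6% in Fmo5-/- mice. The share of *H2-K1* was 34.2% ± 1.02 (SD, n = 3) in WT and 36.4% ± 1.48 in Fmo5-/- mice, and its ranges overlap. The share of *H2-D1* was 14.4% ± 1.04 against 17.7% ± 1.06, and that of *H2-T23* 4.33% ± 0.251 against 5.17% ± 0.183, both without overlap. Within each mouse, the log2 ratio to *H2-Q10* was higher in Fmo5-/- than in WT mice by 0.43 for *H2-K1*, 0.64 for *H2-D1*, 0.60 for *H2-T23* and 1.02 for *H2-Q7*. Each of these 4 ratios had p = 0.1 in a two-sided exact permutation test, which is the smallest p that 3 mice against 3 allow, and the same after adjustment over the 4. The 4 genes were themselves higher without overlap, and *H2-Q10*, added after its values were seen, was not. The ratios are therefore no separate test of those differences.

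**Figure D3:**
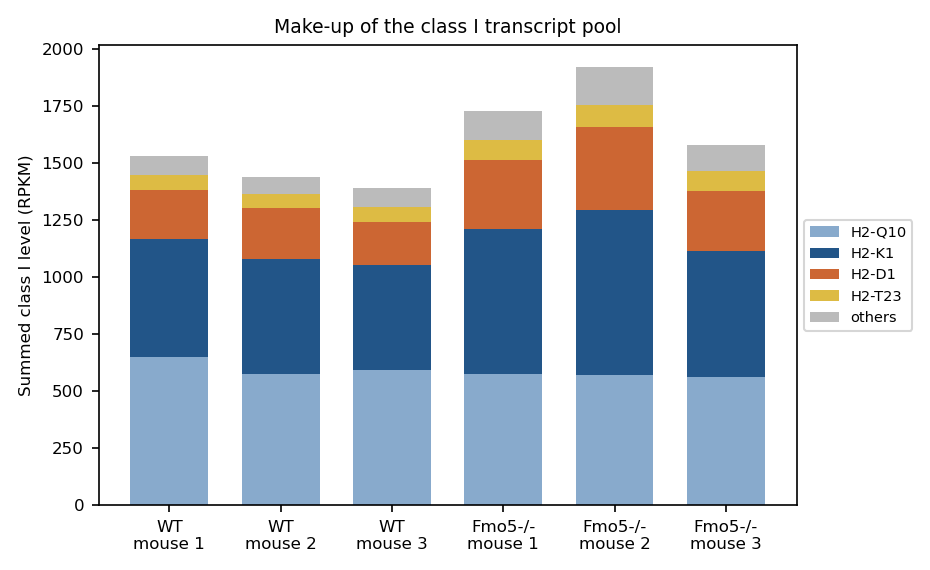
Summed level of all class I genes in each mouse (y axis, RPKM, from 0), stacked by gene. The *H2-Q10* segment is of like height in all 6 mice, while the segments of *H2-K1* and *H2-D1* are taller in the 3 Fmo5-/- mice, whose totals lie between 1580 and 1920 RPKM against 1390 to 1530 RPKM in WT mice.

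The median log2 fold change of the 8 tested class II genes was 1.25, against 0.57 for the tested class I genes, and without Fmo5-/- mouse 2 it was 0.62 over the 7 class II genes still tested, against 0.45 for class I. None of the 8 tested class II members was called in edgeR, and 4 were higher at an unadjusted p under 0.05, against 11.6% of all genes tested. DESeq2 called *H2-DMa* and *H2-DMb1* higher, against 4.75% of all its genes. All 8 log2 fold changes lay above 0. For 6 of the 8 the genotypes did not overlap, against 13.9% of all genes tested that were higher without overlap. *H2-Aa*, the alpha chain of I-A, had 1286, 877 and 775 normalized counts in WT mice and 1677, 4057 and 1235 in Fmo5-/- mice. Fmo5-/- mouse 2 had far more than the others, and mouse 3 lay below WT mouse 1, so that the log2 fold change of 1.25 came with an SE of 0.534 (95% confidence interval -0.14 to 2.64, adjusted p = 0.270 in edgeR). Its partner *H2-Ab1*, the beta chain, had 1492, 1039 and 817 in WT mice and 2117, 4396 and 1493 in Fmo5-/- mice, so that the ranges all but touch, with a log2 fold change of 1.26 (SE 0.489, adjusted p = 0.231). *H2-Eb1*, the beta chain of I-E, had 1333, 1001 and 856 in WT mice and 1888, 4991 and 1375 in Fmo5-/- mice, with a log2 fold change of 1.37 (SE 0.568, adjusted p = 0.257). In the same mice the alpha chain gene of I-E, *H2-Ea-ps*, had 1 count in 1 library and 0 in the others.

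The genes of the peptide editor H2-DM had the same order of Fmo5-/- mice. *H2-DMb1* had 81.5, 104 and 74.6 normalized counts in WT mice and 151, 362 and 122 in Fmo5-/- mice, with a log2 fold change of 1.29 (SE 0.417, adjusted p = 0.137 in edgeR and 0.00747 in DESeq2). *H2-DMa*, its partner, had 161, 127 and 87.9 in WT mice and 266, 462 and 168 in Fmo5-/- mice, with a log2 fold change of 1.25 (SE 0.391, adjusted p = 0.133 in edgeR and 0.00412 in DESeq2). *H2-DMb2* and *H2-Ob*, at log2 fold changes of 0.69 and 0.68, did not overlap between the genotypes, and *H2-Oa* did. Of the other 4 class II members, *H2-Pa* and *H2-Pb* had no count in any library, and *H2-Eb2* had 2 to 20 raw counts. Without Fmo5-/- mouse 2 the log2 fold change was 0.79 for *H2-DMa* (adjusted p = 0.262 in edgeR) and 0.66 for *H2-DMb1* (adjusted p = 0.220), and without mouse 3 *H2-DMa* was called (adjusted p = 0.0352). The summed level of T or natural killer cell markers, 4.82 times the WT mean in the second Fmo5-/- mouse, was also highest there, and that of Kupffer cell markers was 2.58 times the WT mean there and 2.49 times in mouse 1. The part of these cells in the class II levels was not tested.

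*Cd74*, the invariant chain of class II, had 2989, 2718 and 1899 normalized counts in WT mice and 5142, 10258 and 3245 in Fmo5-/- mice. No Fmo5-/- mouse fell in the WT range, and the log2 fold change was 1.29 (SE 0.477, adjusted p = 0.211 in edgeR). *Ciita*, the coactivator of class II genes, had 110, 68.1 and 92.0 in WT mice and 179, 340 and 130 in Fmo5-/- mice, with a log2 fold change of 1.26 (SE 0.364, adjusted p = 0.107 in edgeR and 0.00391 in DESeq2). Both were highest in Fmo5-/- mouse 2 and, within that group, lowest in mouse 3. Without mouse 2 the log2 fold changes were 0.73 for *Cd74* and 0.77 for *Ciita*, and without mouse 3 *Ciita* was called (1.52, adjusted p = 0.0325 in edgeR).

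The peptide loading complex was higher in part. *Tapbp*, or tapasin, which holds the empty class I molecule at TAP, had 2473, 2880 and 2897 normalized counts in WT mice and 4361, 4931 and 3558 in Fmo5-/- mice. All Fmo5-/- mice lay above the WT mice, and the log2 fold change was 0.64 (SE 0.124, adjusted p = 0.0468 in edgeR). *Tap2*, a subunit of the transporter, had 768, 809 and 823 in WT mice and 1100, 1253 and 1051 in Fmo5-/- mice, with a log2 fold change of 0.50 (SE 0.0901, adjusted p = 0.0421). *Tap1*, the other subunit, had 1612, 1355 and 1354 in WT mice and 2617, 3360 and 1919 in Fmo5-/- mice. Its larger log2 fold change of 0.87 (SE 0.192) had an adjusted p of 0.0709 in edgeR and 0.00022 in DESeq2. The calls of *Tapbp* and *Tap2* were kept in 1 of the 6 fits made without 1 library, namely without Fmo5-/- mouse 3, and 18.6% of the 75-base words of *Tapbp* and 8.27% of those of *Tap2* are shared with other gene models.

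*Nlrc5*, the coactivator of class I genes, had 1445, 1453 and 1202 normalized counts in WT mice and 2172, 2713 and 1758 in Fmo5-/- mice, without overlap. Its log2 fold change was 0.70 (SE 0.155, adjusted p = 0.0662 in edgeR and 0.00133 in DESeq2). *B2m*, the light chain of all class I molecules, was the most abundant member, at 1630 ± 61.2 RPKM (SD, n = 3) in WT liver. It had 65660, 68246 and 70798 normalized counts in WT mice and 79520, 88942 and 72885 in Fmo5-/- mice, which did not overlap, with a small log2 fold change of 0.24 (SE 0.102, adjusted p = 0.215). *Tapbpl*, or TAPBPR, a second peptide editor, had 1171, 1191 and 1183 in WT mice and 1408, 1411 and 1220 in Fmo5-/- mice, with a log2 fold change of 0.19 (SE 0.0832, adjusted p = 0.229).

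For 2 of these 10 genes the genotypes overlapped. *Erap1*, the ER aminopeptidase that trims peptides to class I length, had 4070, 4153 and 3492 normalized counts in WT mice and 4076, 3247 and 3540 in Fmo5-/- mice, with a log2 fold change of -0.11 (SE 0.107, 95% confidence interval -0.35 to 0.13, adjusted p = 0.603 in edgeR). *Cd1d1*, a class I-like gene on chromosome 3 that presents lipids to natural killer T cells, had 13798, 11366 and 11702 in WT mice and 11331, 12722 and 12290 in Fmo5-/- mice, with a log2 fold change of -0.02 (SE 0.101, adjusted p = 0.928). *H2-Ke6*, the enzyme gene of the region, had 28.5 to 41.2 normalized counts in the 6 mice and a log2 fold change of -0.07 (SE 0.241, adjusted p = 0.891).

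Beside *Cd1d1* lies its copy *Cd1d2*, which is not a member but shares 22.8% of its 75-base words with *Cd1d1*. *Cd1d2* had 10.6, 4.46 and 5.11 normalized counts in WT mice and 850, 903 and 890 in Fmo5-/- mice, with a log2 fold change of 7.0 (SE 0.211, adjusted p = 3.43e-07 in edgeR). The 2 genes are 6.05 kb apart, and both lie 10.6 Mb from *Fmo5* on chromosome 3. A difference carried on the chromosome segment around the targeted gene and an effect of the loss of FMO5 cannot be told apart here.

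The Fmo5-/- mice differed among themselves in a way that most members shared. Fmo5-/- mouse 2 was the highest of the 6 mice for 30 of the 36 tested members, against 22.5% of all genes tested, and mouse 3 was the lowest Fmo5-/- mouse for 29. Those 22.5% include genes that were lower in Fmo5-/- mice. Of the 2325 tested genes that were higher without overlap, mouse 2 was highest for 58.5% and mouse 3 the lowest Fmo5-/- mouse for 58.2%. Among the 26 members without overlap, 24 had the order mouse 2, mouse 1, mouse 3, against 41.7% of the 2325 tested genes that were higher without overlap. The median level over the WT mean was 1.43, 1.77 and 1.27 times in the Fmo5-/- mice 1, 2 and 3 for class I, 1.73, 3.81 and 1.34 times for class II, and 1.48, 1.68 and 1.29 times for the processing genes and regulators.

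The summed levels of 3 lists of immune cell markers lay above the WT range in every Fmo5-/- mouse. Over all genes tested, edgeR called 0.675% higher, 11.6% were higher at an unadjusted p under 0.05 and 13.9% were higher without overlap. DESeq2 called 4.75% of all its genes higher. The summed level of 10 Kupffer cell markers was 13195 to 15594 normalized counts in WT mice and 2.49, 2.58 and 1.41 times the WT mean in the Fmo5-/- mice 1, 2 and 3, and 9 of the 10 did not overlap between the genotypes. Of the 10, 5 were highest in mouse 1 and 5 in mouse 2. In edgeR 1 of the 10 was called, *Clec4f* (log2 fold change 0.70, SE 0.111, adjusted p = 0.0275), and in DESeq2 9. The summed level of 10 T or natural killer cell markers was 279 to 401 normalized counts in WT mice and 2.08, 4.82 and 1.52 times the WT mean in the Fmo5-/- mice, with 0 called in edgeR, 8 higher at an unadjusted p under 0.05 and 6 called in DESeq2. *Cd8a*, the coreceptor for class I and chosen after its values had been seen, had 22.2, 7.81 and 14.3 normalized counts in WT mice and 86.6, 321 and 61.9 in Fmo5-/- mice (log2 fold change 3.39, adjusted p = 0.0884 in edgeR). That was the largest log2 fold change of the 10, and the smallest was that of *Cd4*, the coreceptor for class II. *Cd4* had 72.0, 99.3 and 135 in WT mice and 112, 166 and 100 in Fmo5-/- mice. These ranges overlap (log2 fold change 0.30, adjusted p = 0.566 in edgeR). Of the 10 markers, 5 were higher without overlap. The summed level of 6 monocyte or neutrophil markers was 257 to 365 in WT mice and 1.93, 3.16 and 1.46 times the WT mean in the Fmo5-/- mice, with 1 of 6 called in edgeR, *Csf3r*, the receptor of a granulocyte growth factor (log2 fold change 1.25, adjusted p = 0.0468). The call of *Csf3r* was kept in 1 of the 6 fits without 1 library, that without Fmo5-/- mouse 3 (adjusted p of up to 0.134 in the others), and that of *Clec4f* in 2 (up to 0.102).

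Dendritic cell and B cell markers differed less. The 9 dendritic cell markers had a median log2 fold change of 0.35 and a summed level of 570 to 721 normalized counts in WT and 685 to 1142 in Fmo5-/- mice. The 8 B cell markers also had a median of 0.35, with summed levels of 360 to 532 and 504 to 670. None of either list was called in edgeR, 2 of each were higher at an unadjusted p under 0.05, against 11.6% of all genes tested, and DESeq2 called 1 dendritic cell and 0 B cell markers higher, against 4.75% of all its genes. Fmo5-/- mouse 2 was the highest of the 6 mice for 8 of the 9 dendritic cell and 4 of the 8 B cell markers. Hepatocyte markers had summed levels of 5327074 to 6854678 normalized counts in WT and 5449294 to 6740489 in Fmo5-/- mice. The median log2 fold change of the 7 hepatocyte markers was -0.10, that of 8 markers of sinusoidal endothelium 0.06, of 7 of stellate cells 0.17 and of 6 of cholangiocytes 0.03. Mouse 2 was also the highest of the 6 for all 7 stellate cell markers, against 22.5% of all genes tested. It was highest for 2 endothelial, 0 cholangiocyte and 0 hepatocyte markers. The endothelial markers were mixed: 1 was higher and 2 were lower without overlap, against 13.9% and 13.5% of all genes tested. No marker of any list was at 0 in all libraries. In whole liver, more cells of a type and more RNA per cell cannot be told apart, and the part of these cells in the levels of the class I, class II and processing genes was not tested.

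**Figure D4:**
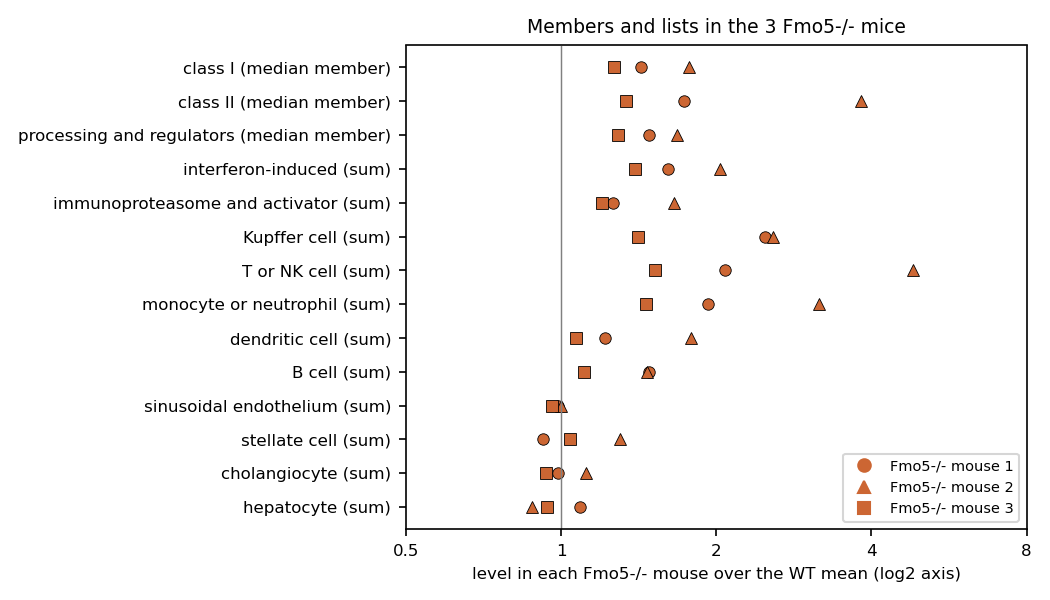
Level in each Fmo5-/- mouse over the WT mean (x axis, log2 scale) for the median tested member of each class and for the summed level of lists of related genes and of cell type markers (y axis). Class II, T or natural killer cell and monocyte or neutrophil genes are highest in Fmo5-/- mouse 2 (triangles), at 3.81, 4.82 and 3.16 times the WT mean, while endothelial, stellate, cholangiocyte and hepatocyte sums stay between 0.877 and 1.30 times.

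Genes that act with the members were counted on lists chosen by function, with earlier results of these data known. The shares over all genes are therefore given beside these counts as a description and not as a test. Of 16 interferon-induced genes, 5 were called higher in edgeR (*Irf7*, *Usp18*, *Gbp3*, *Gbp7* and *Ifit1*), against 0.675% of all genes tested. DESeq2 called 13 of the 16 higher, against 4.75% of all its genes, and 0 were called lower in either. For all 16 the Fmo5-/- mice lay above the WT mice, against 13.9% of all genes tested. *Irf7*, the interferon regulatory factor that amplifies type I interferon responses, had 1216, 1227 and 1442 normalized counts in WT mice and 2213, 2280 and 2078 in Fmo5-/- mice, with a log2 fold change of 0.76 (SE 0.0908, adjusted p = 0.00871). *Irf7* was of like level in the 3 Fmo5-/- mice, whereas 14 of the 16 genes were highest in mouse 2 and the summed level of the list was 1.61, 2.03 and 1.39 times the WT mean in mice 1, 2 and 3. *Usp18*, which restrains interferon receptor signalling, had a log2 fold change of 0.97 (SE 0.128, adjusted p = 0.0133), and *Gbp3* and *Gbp7*, guanylate-binding proteins, had 1.51 (adjusted p = 0.0208) and 1.06 (adjusted p = 0.0316). *Ifit1*, an RNA sensor of the interferon response, had 0.79 (adjusted p = 0.0260). Of the 6 fits without 1 library, the call was kept in 6 for *Irf7*, 5 for *Usp18*, 3 for *Gbp7*, 2 for *Gbp3* and 1 for *Ifit1*, with adjusted p-values of up to 0.121 in edgeR. The median log2 fold change of the list was 0.83.

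Of the 5 genes of the immunoproteasome and its activator, *Psmb10* was called (log2 fold change 0.69, SE 0.130, adjusted p = 0.0468 in edgeR). Its call was kept in 1 of the 6 fits made without 1 library, that without Fmo5-/- mouse 3, and reached an adjusted p of 0.138 in the others. It encodes 1 of the inducible catalytic subunits that cut peptides for class I. The other such subunits, *Psmb8* and *Psmb9*, were chosen after their values had been seen: *Psmb8* had 1098, 1082 and 1234 normalized counts in WT mice and 1932, 2892 and 1733 in Fmo5-/- mice (log2 fold change 0.94, adjusted p = 0.0554), and *Psmb9* had a log2 fold change of 1.07 (adjusted p = 0.0710). DESeq2 called these 3 of the 5 genes higher, against 4.75% of all its genes, and edgeR called 0.675% of all genes tested higher. The activator genes *Psme1* and *Psme2* had log2 fold changes of 0.21 and 0.23 and were not called.

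The ER folding partners of class I lay the other way. *Calr*, *Canx* and *Pdia3* encode calreticulin, calnexin and ERp57, chaperones of class I and of many other glycoproteins. *Pdia3* had 26567, 31355 and 28244 normalized counts in WT mice and 17647, 22836 and 20267 in Fmo5-/- mice, with a log2 fold change of -0.50 (SE 0.116, adjusted p = 0.0662 in edgeR and 0.00129 in DESeq2). *Canx* (-0.34, adjusted p = 0.0763) was likewise without overlap, and *Calr* (-0.39, adjusted p = 0.155) overlapped. None of the 3 was called in edgeR, all 3 were lower at an unadjusted p under 0.05, against 10.2% of all genes tested, and DESeq2 called 2 lower, against 4.21% of all its genes. *Tapbp* thus had a higher and *Pdia3*, its partner in the loading complex, a lower mean in the same Fmo5-/- mice, with no overlap between the genotypes for either.

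No call was made in edgeR on the lists of peptide trimming, of the class II compartment and of interferon receptors. Of 6 peptide trimming enzymes, 2 were lower at an unadjusted p under 0.05, against 10.2% of all genes tested. DESeq2 called 0 of the 6, against 4.21% of all its genes called lower. Of 7 genes of the class II compartment, 3 were higher at that level and DESeq2 called 3, among them *Ctss*, the protease that trims the invariant chain (log2 fold change 0.83, adjusted p = 0.149 in edgeR), and *Lgmn* (0.69, adjusted p = 0.0633), both named after their values had been seen. The 7 log2 fold changes ran from -0.20 to 0.83, with a median of 0.20. *Ctsb*, the most abundant of the 7, overlapped between the genotypes (0.20, adjusted p = 0.340 in edgeR). Of 8 interferon receptors and their kinases and inhibitor, 2 were higher at that level and DESeq2 called 1 higher. The counts of both these lists stand against 11.6% of all genes tested that were higher at that level. DESeq2 called 4.75% of all its genes higher. Of 6 class I-like genes without the prefix, *Cd1d2* was called, and *Azgp1* and *Fcgrt*, the most abundant, had log2 fold changes of -0.19 and -0.15 and were not.

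The members were also set against the other genes of the MHC, on chromosome 17 between 33974659 and 37274484 (mm10), from the start of *H2-K2* to the end of *H2-M3*. Of the 28 members tested there, *H2-Ke6* included, 6 were called higher, 20 (71.4%) were without overlap and higher, and the median log2 fold change was 0.687. Of 100 other tested genes between the same ends, 0 were called in edgeR. At an unadjusted p under 0.05, 24 of the 100 were higher and 2 lower, against 11.6% and 10.2% of all genes tested. DESeq2 called 11 of the 100 higher and 1 lower, against 4.75% and 4.21% of all its genes. For 27 of the 100 (27.0%) the Fmo5-/- mice all lay higher and for 2 lower, against 13.9% and 13.5% of all genes tested. The median log2 fold change of the 100 was 0.153. Both sets lie on another chromosome than *Fmo5*.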

How the data were processed

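Liver RNA of 3 WT and 3 Fmo5-/- mice was sequenced in single reads of 75 bases, and the authors used STAR for alignment to mm10 and for counting per gene, and deposited the raw counts. The deposited tables hold, for each library, the counts of both strands and of each strand alone, which are nearly equal, so that overlapping genes on opposite strands cannot be told apart. In a further table the authors deposited signal values, which are counts that DESeq2 divided by 1 size factor per library, and these were used here only to check the join of the tables. The log2, score and p-value columns of that table hold the authors' own DESeq2 comparison and were not used. Positions come from GENCODE vM21, which holds all 55 members and 54409 of the 54446 genes; the release the authors used is not stated.

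Counts of both strands were tested in R 4.3.3 with edgeR 4.0.16 (TMM, filterByExpr with a minimum count of 10, robust quasi-likelihood fit and F test) and Benjamini-Hochberg adjustment over 16734 genes, and a gene was called at an adjusted p under 0.05. The SE is the log2 fold change over the square root of F, and intervals are 95% confidence intervals. DESeq2 1.42.0 was the main alternative. The members and lists were chosen with earlier results of these data known. Values in every mouse are given for called members, the 10 genes of processing and control, *H2-K1*, *H2-D1*, *H2-Aa*, *H2-Ab1*, *H2-Eb1* and the 3 tested class I and class II members with the largest log2 fold change, with others added after their values were seen (*H2-Q1*, *H2-Q4*, *H2-Q10*, *H2-DMa*). From the lists, called genes and at most 2 abundant others are named, with others added after their values were seen (*Psmb8*, *Psmb9*, *Canx*, *Ctss*, *Lgmn*, *Cd8a*, *Cd4*). The other settings were RLE factors, TMM without the 20 most abundant genes, no filter on low counts, the study's limit of a mean of 500 set before the fit, the reads of 1 strand, and leaving out each library. RPKM is the normalized count per kilobase of vM21 exon and 1e+06 counts. Each library is 1 mouse. The steps were tested on simulated data. The results of 1 list are not reported here.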

Additional observations from a re-analysis of the deposited data

How the results depend on the processing

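No paired analysis was made, because the WT and Fmo5-/- mice are separate animals and the labels name no pairing between them. The number of members called was 7 and depended on the test: 17 with DESeq2, 20 with no filter on low counts and 3 when only genes with a mean of 500 or more entered the fit. In that order it was 10, 13 and 3 for class I (5 in the main test), 2, 2 and 0 for class II (0 in the main test) and 5, 5 and 0 for the processing genes and regulators (2 in the main test). Over all genes these settings called 8.96%, 5.82% and 0.678%, against 1.37%. Leaving out 1 library in turn gave 1 to 14 members, 1 to 8 of class I, 0 to 1 of class II and 0 to 5 of the processing genes and regulators. It was 1 without Fmo5-/- mouse 1 (*H2-Q5*), 2 or 3 without a WT mouse, 4 without Fmo5-/- mouse 2 and 14 without Fmo5-/- mouse 3, where all 7 were kept. Over all genes these fits called 0.182% without Fmo5-/- mouse 1, 0.36% to 0.866% without a WT mouse, 0.627% without Fmo5-/- mouse 2 and 4.45% without Fmo5-/- mouse 3. Among the tested members and the list genes named in the text, the log2 fold change turned in direction for *Cd1d1* with the limit of 500 (0.05) and without 1 library (-0.07 to 0.08), and without 1 library for *H2-Q1* (-0.01 to 0.61), *H2-Ke6* (-0.23 to 0.04) and *Alb* (-0.18 to 0.03). None of these 4 was called in the main test. With RLE factors, with TMM without the 20 most abundant genes and with reads of 1 strand the number of members called was 7, 7 and 8, and in no setting was a member called lower. The causes of these differences were not tested.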
